A study of Arabidopsis thaliana with 18 samples.

Results

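The 10 genes described here encode enzymes of the main route to auxin in Arabidopsis thaliana: the aminotransferases TAA1 and TAR2 and the flavin monooxygenases YUC1, YUC2, YUC3, YUC4, YUC5, YUC6, YUC8 and YUC9. They were taken by gene identifier from 26073 genes listed for each library, and earlier results of these data were known when they were chosen. RNA-seq had been made from cotyledon, apical hook and hypocotyl of Col-0 wild-type (WT) seedlings and of pifq, the pif1pif3pif4pif5 quadruple mutant, with 3 libraries for each of the 6 combinations, 18 in all. All seedlings, WT and mutant, were 4 days old, had been kept in continuous darkness at 22 °C and had grown on MS medium with 3% sucrose. The mutant alleles, the number of seedlings pooled and the way the organs were cut apart are not given in the sources used here. The titles number the 3 libraries of a group Bio1 to Bio3. The labels do not say whether these were separate sowings, so p-values measure the spread between these libraries.

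Auxin (indole-3-acetic acid) is made mainly from tryptophan in a pair of steps. TAA1 and its relatives TAR1 and TAR2 turn tryptophan into indole-3-pyruvate (IPyA), and YUCCA (YUC) enzymes turn IPyA into auxin, a step usually taken to be rate-limiting. In a dark-grown seedling auxin drives hypocotyl elongation, and its uneven distribution across the hook keeps the hook bent. Phytochrome-interacting factors (PIFs) are bHLH transcription factors that accumulate in darkness and bind G-box and related E-box DNA. PIF4 and related PIFs are known to act on TAA1, YUC8 and other YUC genes when seedlings are warmed or shaded.

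Levels are FPKM, the authors' deposited unit, in which a fragment count is divided by transcript length and library total, so that genes can be set side by side. The library totals that the FPKM steps imply ran from 12955816 to 20701120 reads or read pairs. None of the 10 genes overlaps another annotated gene. Differences are log2 changes on the scale of log2(FPKM + 1), with a standard error (SE) from a limma fit over all 18 libraries, and p-values were adjusted over all 19349 genes that reached 1 FPKM in at least 3 libraries. "Called" means an adjusted p under 0.05. The added 1 compresses the change of genes near or below 1 FPKM. Of the 10 genes 9 passed the filter on low values, and YUC1 did not. PIF3 and PIF5 transcripts were lower in pifq in each organ. The log2 change for PIF3 was -3.74 in cotyledon, -4.89 in hook and -3.42 in hypocotyl, and for PIF5 -1.70, -1.80 and -0.74. PIF1 and PIF4 transcripts were not lower throughout and do not check the labels. In pifq cotyledon 2 of these 4 loci were called lower and 2 were not called. In pifq hook 3 were called lower and 1 was not called. In pifq hypocotyl 2 were called lower and 2, PIF1 and PIF4, were called higher. On the first principal component, which held 50.4% of the variance, replicate 2 of the pifq hook lay at -19.1 and the other 2 at -53.3 and -54.8, so hook results are also given without it where the members and lists are described.

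The stretches before 4 of the YUC genes are shown because 3 of these genes (YUC2, YUC5 and YUC9) changed organ together and the fourth, YUC8, holds the G-boxes found. Sequences are from the RefSeq TAIR10.1 genome, read 5′ to 3′ on the strand of the gene and ending at or before the base that precedes the annotated gene start. Capitals mark a G-box (CACGTG) or a PBE-box (PIF-binding E-box, CACATG, which reads CATGTG on the other strand). Both strands were searched, and the motifs do not overlap each other.
YUC9, chr1:1104343-1104492, plus strand: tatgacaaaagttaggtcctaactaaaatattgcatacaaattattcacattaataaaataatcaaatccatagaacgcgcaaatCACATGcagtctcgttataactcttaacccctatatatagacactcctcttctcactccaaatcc
YUC5, chr5:17650376-17650525, minus strand: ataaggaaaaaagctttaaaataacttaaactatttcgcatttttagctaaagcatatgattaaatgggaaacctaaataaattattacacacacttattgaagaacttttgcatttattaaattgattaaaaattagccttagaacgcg
YUC2, chr4:7724071-7724220, minus strand: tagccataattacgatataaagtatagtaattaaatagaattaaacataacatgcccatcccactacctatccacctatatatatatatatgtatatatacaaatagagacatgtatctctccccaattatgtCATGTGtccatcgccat
YUC8 distal, chr4:14192059-14192148, plus strand: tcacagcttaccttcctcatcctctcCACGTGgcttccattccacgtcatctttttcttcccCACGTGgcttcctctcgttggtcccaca
YUC8 proximal, chr4:14192489-14192568, plus strand: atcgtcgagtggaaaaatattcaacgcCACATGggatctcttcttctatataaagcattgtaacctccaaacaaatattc

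In the 1000 bases before the gene start, a G-box was found in 1 of the 10 genes, YUC8, against 15.5% of 24067 annotated genes. Its 2 copies begin 484 and 448 bases before the start. A PBE-box was found in 4 of the 10 genes against 38.0% of all genes: YUC2 at 17 bases before the start, YUC8 at 53, YUC9 at 65 and YUC6 at 478. Either motif was in 4 of 10 genes, against 47.1% of all. Within 300 bases, 3 of the 10 had either motif, against 19.5% of all genes. Of the trio whose transcripts changed organ together, YUC2 and YUC9 have a PBE-box close to the start, and these letters are not in the 1000-base window of YUC5. The windows of TAA1, TAR2, YUC1, YUC3 and YUC4 also hold neither motif. A match of letters is not a measured binding site, and no binding was measured.

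**Figure D1:**
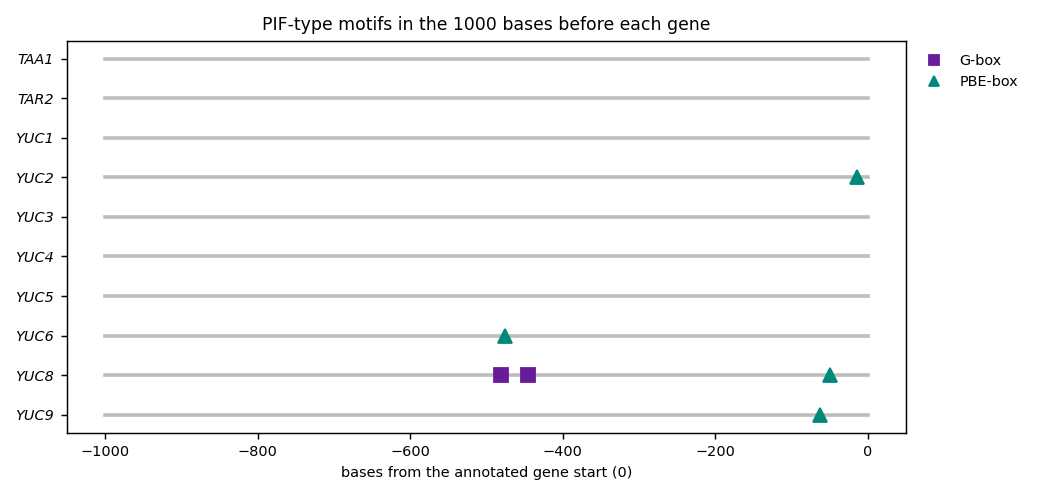
Positions of G-box and PBE-box letters in the 1000 bases before the annotated start (0) of each of the 10 genes. YUC8 alone among them has G-boxes (2), and PBE-boxes lie near the start of YUC2, YUC8 and YUC9.

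In WT the aminotransferase TAA1 (AT1G70560, chr1:26604855-26607652, 5 exons) was the most abundant of the 10 transcripts in each organ, with its peak in the hook. Its 3 WT libraries gave 14.5, 14.6 and 16.1 FPKM in cotyledon, 42.3, 50.0 and 51.0 in hook, and 8.78, 14.7 and 12.1 in hypocotyl. All 3 hook libraries thus lay above every other WT library. The hook exceeded the cotyledon by a log2 change of 1.60 ± 0.18 (SE, n = 3 per group; adjusted p = 1.37e-06 in limma). Cotyledon and hypocotyl did not differ beyond their spread (-0.35 ± 0.18; adjusted p = 0.0886), although the call was made without WT hypocotyl replicate 2.

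In pifq the hook peak of TAA1 was gone. The mutant libraries gave 16.6, 15.9 and 14.3 FPKM in cotyledon, 11.1, 11.3 and 10.6 in hook, and 4.28, 3.79 and 2.09 in hypocotyl. Hook and hypocotyl libraries lay below all WT libraries of the same organ, and cotyledon libraries overlapped with WT. The mean fell from 47.7 ± 4.77 to 10.99 ± 0.37 FPKM in the hook (SD, n = 3 each; 4.34-fold lower) and from 11.9 ± 2.98 to 3.39 ± 1.15 in the hypocotyl (3.51-fold lower). On the log2 scale the change was -2.02 ± 0.18 in hook (adjusted p = 9.39e-08; -2.03 without pifq hook replicate 2), -1.56 ± 0.18 in hypocotyl (adjusted p = 2.68e-06) and 0.04 ± 0.18 in cotyledon (adjusted p = 0.864; 95% interval -0.33 to 0.42). The effect in hook and that in hypocotyl each differed from the effect in cotyledon, by -2.06 and -1.61 (adjusted p = 1.64e-05 and 0.000103 for the interaction in limma); the first was -2.08 without pifq hook replicate 2. The organ order changed with it: in WT the hook stood first, and in pifq the cotyledon stood above the hook by a small margin (hook against cotyledon -0.47 ± 0.18; adjusted p = 0.0302), a call that was lost when any of 5 of the 6 libraries was left out.

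TAR2 (AT4G24670, chr4:12727531-12731331, minus strand, 6 exons), the second aminotransferase, had another organ order. In WT it read 9.05, 11.5 and 10.1 FPKM in cotyledon, 4.71, 3.22 and 3.60 in hook, and 1.63, 2.25 and 1.55 in hypocotyl. Each step of this order, cotyledon above hook above hypocotyl, was called (hook against cotyledon -1.22, hypocotyl against hook -0.78; adjusted p = 6.13e-06 and 0.000403). In pifq the values were 8.52, 7.45 and 6.87 in cotyledon, 6.87, 4.87 and 7.49 in hook, and 2.15, 1.73 and 2.26 in hypocotyl. The mutant hook thus lay above the WT hook and overlapped with the mutant cotyledon. Hook against cotyledon in pifq was not called (-0.23 ± 0.16, adjusted p = 0.206 in limma). It was called lower under the median-ratio scaling (-0.68, adjusted p = 0.00202) and on the recovered reads (-0.73, adjusted p = 0.00155). TAR2 rose by 0.61 ± 0.16 in the hook (adjusted p = 0.0032; 0.77 without pifq hook replicate 2), and its difference in hypocotyl, 0.12 ± 0.16, was not called (adjusted p = 0.537). In cotyledon it was called lower at -0.38 ± 0.16 (adjusted p = 0.0461). That call was lost in 9 of 14 alternatives, among them the median-ratio scaling (-0.19, adjusted p = 0.319) and the recovered reads (-0.28, adjusted p = 0.141). The effect in hook differed from that in cotyledon by 0.99 ± 0.22 (adjusted p = 0.00222; 1.15 without pifq hook replicate 2).

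The ratio of TAA1 to TAR2 FPKM was 1.49 ± 0.19 in WT cotyledon, 12.9 ± 3.45 in WT hook and 6.59 ± 1.22 in WT hypocotyl (SD, n = 3). In pifq it was 2.05 ± 0.10, 1.78 ± 0.47 and 1.70 ± 0.68. The genotypes did not overlap in any organ, with pifq above WT in cotyledon (1.94 to 2.14 against 1.27 to 1.60) and below it in hook and hypocotyl. The summed level of both was 51.6 ± 4.05 FPKM in the WT hook and 17.4 ± 1.11 in the pifq hook.

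The hook libraries of pifq also held more transcripts that mark other tissues, and their part in the hook results was not tested. Of all tested genes 24.4%, 36.6% and 35.9% were called higher in pifq cotyledon, hook and hypocotyl. Those called lower were 35.4%, 24% and 16.5%. All 5 lateral organ markers tested (FIL, YAB2, YAB3, YAB5 and AS1), which mark cotyledon and leaf tissue, were called higher in the pifq hook; their summed level was 84.4 to 108.5 FPKM in WT hook and 214.4 to 225.3 in pifq hook, beside 223.5 to 242.5 in WT cotyledon. None of the 5 was at 0. All 5 stomatal lineage markers were higher as well (summed 6.18 to 12.6 FPKM in WT hook, 32.7 to 43.7 in pifq hook), as were 4 of 5 xylem markers (58.2 to 68.4 and 100.6 to 130.2 FPKM). Of 7 shoot meristem and boundary markers 5 were tested and 4 were higher (11.5 to 15.6 and 21.4 to 33.2 FPKM), while WUS was at 0 in every WT hook library. Stomatal lineage markers were also called higher in pifq cotyledon (4 of 5) and hypocotyl (5 of 5), and lateral organ markers were mixed there (1 higher and 2 lower in cotyledon, 2 higher and 1 lower in hypocotyl). All 5 members called higher in the hook (TAR2, YUC2, YUC4, YUC5 and YUC9) moved in the direction of these lists, as did the untested YUC1, and TAA1, YUC3 and YUC8 moved in the opposite one. Without pifq hook replicate 2 the lateral organ, stomatal and meristem counts in the hook stayed at 5, 5 and 4, and the xylem count was 2 in place of 4. In bulk samples fewer cells of a type and less RNA per cell cannot be told apart.

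**Figure D2:**
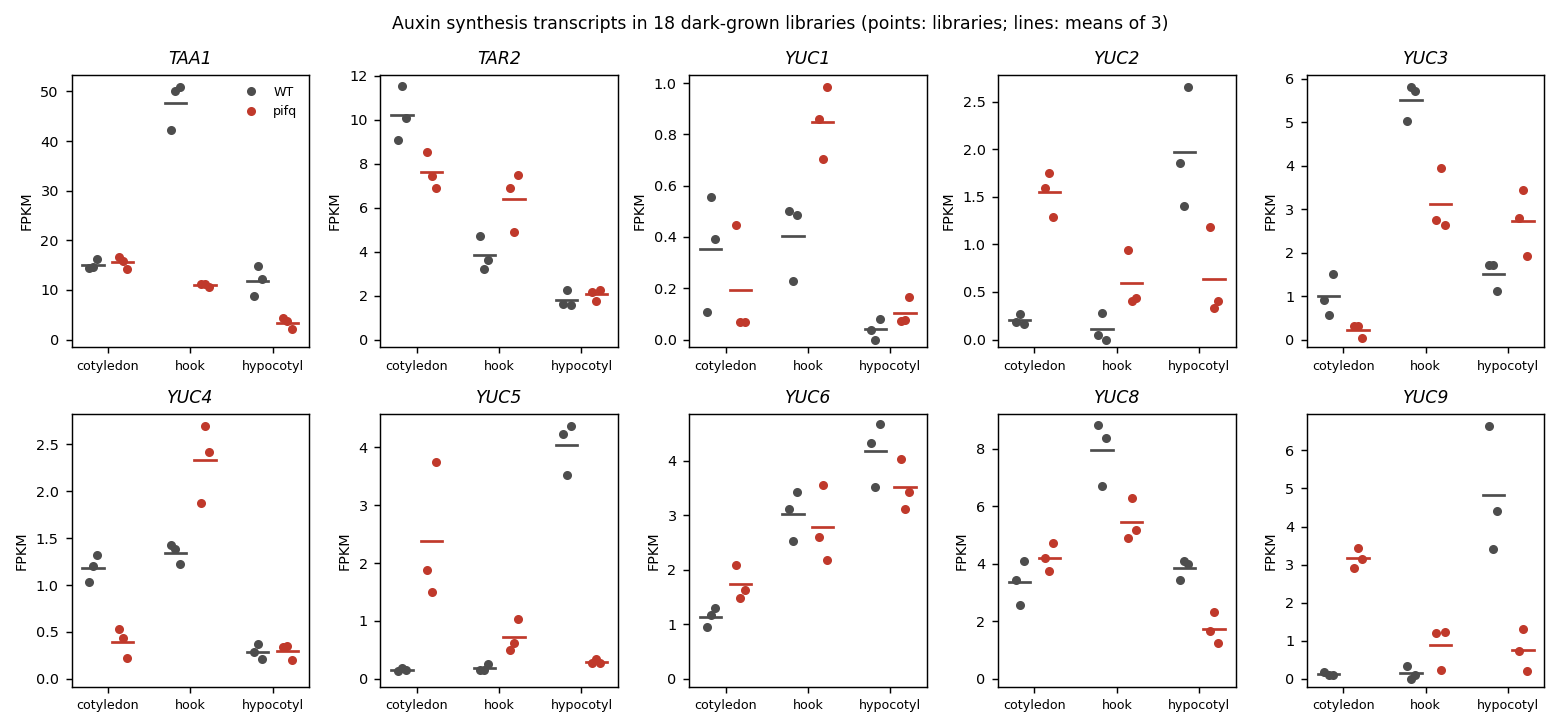
FPKM (y axis) of each of the 10 genes in every library by organ (x axis), WT in grey and pifq in red; points are libraries and lines are means of 3. TAA1 peaks in the WT hook at 42.3 to 51.0 FPKM, and YUC2, YUC5 and YUC9 are high in WT hypocotyl and in pifq cotyledon.

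Among the YUC genes, YUC2, YUC5 and YUC9 shared a pattern in which the organ with the highest level was the hypocotyl in WT and the cotyledon in pifq. These 3 were grouped after their values were seen. YUC9 (AT1G04180, chr1:1104493-1106241, 2 exons) belongs with YUC5 and YUC8 to the YUC genes known for expression in roots and for responses to shade and warmth. In WT it gave 0.187, 0.105 and 0.104 FPKM in cotyledon, 0.340, 0 and 0.107 in hook, and 6.63, 3.41 and 4.42 in hypocotyl. In pifq it gave 2.90, 3.44 and 3.14 in cotyledon, 1.19, 0.236 and 1.24 in hook, and 0.739, 1.30 and 0.205 in hypocotyl. The organs had swapped: every pifq cotyledon library lay above every WT cotyledon library, and every pifq hypocotyl library below every WT hypocotyl library. In the hook the genotypes overlapped. The recovered reads behind these levels were 3 to 4 per library in WT cotyledon and 96 to 114 in pifq cotyledon.

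YUC9 rose in the pifq cotyledon by 1.88 ± 0.25 (adjusted p = 8.54e-06) and fell in the hypocotyl by 1.75 ± 0.25 on the log2 scale (adjusted p = 3.02e-05), where its mean was 6.45-fold lower. The effects in these organs differed by -3.63 ± 0.36 (adjusted p = 1.75e-06). Within pifq the hypocotyl was below the cotyledon (-1.30; adjusted p = 0.000214), while within WT it was above (2.33; adjusted p = 3.67e-07). A rise in the hook, 0.68 ± 0.25 (adjusted p = 0.0289), became 0.96 without pifq hook replicate 2, whose YUC9 level was 0.236 FPKM. That hook call was lost on leaving out WT hook replicate 2 or 3 or pifq hook replicate 1 or 3, and on the recovered reads (2.53, adjusted p = 0.0724).

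YUC5 (AT5G43890, chr5:17648576-17650375, minus strand, 1 exon) shares 81.0% of aligned coding bases with YUC9, the highest identity among the 10 genes, and their longest identical stretch is 42 bases. It gave 0.129, 0.193 and 0.159 FPKM in WT cotyledon, 0.156, 0.148 and 0.262 in WT hook, and 4.22, 3.53 and 4.37 in WT hypocotyl. The mutant libraries of this gene gave 1.88, 1.49 and 3.75 in cotyledon, 0.496, 0.622 and 1.04 in hook, and 0.265, 0.335 and 0.268 in hypocotyl. The genotypes did not overlap in any organ. YUC5 rose by 1.48 ± 0.18 in cotyledon (adjusted p = 3.87e-06) and fell by 1.96 ± 0.18 on the log2 scale in hypocotyl (adjusted p = 3.84e-07), where the mean was 14.0-fold lower. The pifq hypocotyl libraries held only 9, 11 and 10 recovered reads of YUC5. The effects differed between hypocotyl and cotyledon by -3.45 ± 0.26 (adjusted p = 1.86e-07) and between hypocotyl and hook by -2.48 ± 0.26 (adjusted p = 7.91e-06; -2.52 without pifq hook replicate 2). A hook rise of 0.52 ± 0.18 (adjusted p = 0.0226; 0.56 without pifq hook replicate 2) was lost under the median-ratio scaling (adjusted p = 0.0619) and on leaving out WT hook replicate 1 or 2 or pifq hook replicate 3. Between pifq hypocotyl and pifq hook the difference was -0.40 ± 0.18 (adjusted p = 0.0665), and with the replicate number as a block it was called (adjusted p = 0.0463).

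YUC2 (AT4G13260, chr4:7721487-7724070, minus strand, 3 exons), a member known from leaves and flowers, shared the organ with the highest level in each genotype with YUC5 and YUC9. It gave 0.179, 0.268 and 0.159 FPKM in WT cotyledon, 0.0520, 0.278 and 0 in WT hook, and 1.85, 1.41 and 2.65 in WT hypocotyl. In the mutant its levels were 1.60, 1.75 and 1.29 in cotyledon, 0.938, 0.406 and 0.434 in hook, and 1.18, 0.331 and 0.403 in hypocotyl. The genotypes did not overlap in any organ. The change was 1.08 ± 0.20 in cotyledon (adjusted p = 0.000179), 0.51 ± 0.20 in hook (adjusted p = 0.0331) and -0.87 ± 0.20 in hypocotyl (adjusted p = 0.00148). The hook call was kept without pifq hook replicate 2 (0.60) and lost without WT hook replicate 1 or 3 or pifq hook replicate 1, and under the median-ratio scaling (adjusted p = 0.0591). The effect in hypocotyl differed from that in cotyledon by -1.95 ± 0.28 and from that in hook by -1.39 ± 0.28 (adjusted p = 4.52e-05 and 0.00162); the second was -1.47 without pifq hook replicate 2.

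Because these genes lie near 1 FPKM, the added 1 shrinks their changes. The recovered reads were tested with limma-voom, which adds a fraction of a read in place of 1 FPKM. The changes in cotyledon were then 4.61 for YUC9, 3.78 for YUC5 and 3.01 for YUC2. In hypocotyl they were -3.24, -3.98 and -2.05, and all 6 were called. WT cotyledon libraries held only 3 to 10 recovered reads of each of these genes. Across the 18 libraries YUC5 and YUC9 correlated at r = 0.93, YUC2 and YUC9 at 0.90 and YUC2 and YUC5 at 0.85, as a description over libraries that share depth and group structure. Transcripts of root markers, the place where YUC5 and YUC9 are best known, were low: all 5 (PLT1, PLT2, WOX5, RHD6 and COBL9) failed the filter. Their summed level was 0.0670 to 0.157 FPKM in WT cotyledon and 0.349 to 0.727 in pifq cotyledon. It was 1.504 to 1.96 in WT hypocotyl and 0.863 to 5.37 in pifq hypocotyl. RHD6, a root hair gene, was at 0 in every cotyledon library. The part of root tissue in these YUC values was not tested.

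The second group of YUC genes was highest in the hook. YUC8 (AT4G28720, chr4:14192569-14194302, 1 exon), the gene with the G-boxes printed above, was the most abundant YUC transcript in WT cotyledon and hook. It gave 3.43, 2.56 and 4.09 FPKM in WT cotyledon, 8.83, 6.71 and 8.36 in WT hook, and 3.42, 4.08 and 4.00 in WT hypocotyl. For YUC8 in pifq the values were 4.199, 3.73 and 4.71 in cotyledon, 4.91, 6.29 and 5.18 in hook, and 1.65, 2.31 and 1.25 in hypocotyl. Hook and hypocotyl libraries of pifq lay below all WT libraries of their organ, and cotyledon libraries overlapped. YUC8 fell by 0.84 ± 0.16 on the log2 scale in hypocotyl (adjusted p = 0.000372) and by 0.47 ± 0.16 in hook (adjusted p = 0.0171; -0.56 without pifq hook replicate 2). The hook call was lost without WT hook replicate 1 or 3 or pifq hook replicate 1. In cotyledon its difference of 0.27 ± 0.16 was not called (adjusted p = 0.159), but it was called higher under the median-ratio scaling (0.45, adjusted p = 0.0201) and on the recovered reads (0.50, adjusted p = 0.0385). The effects in hook and hypocotyl each differed from that in cotyledon, by -0.74 and -1.10 (adjusted p = 0.015 and 0.000924); the first was -0.83 without pifq hook replicate 2. Its levels followed those of TAA1 across the 18 libraries at r = 0.87.

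YUC3 (AT1G04610, chr1:1279351-1281618, 3 exons) was also highest in the WT hook. It gave 0.914, 0.553 and 1.52 FPKM in WT cotyledon, 5.03, 5.81 and 5.72 in WT hook, and 1.72, 1.71 and 1.11 in WT hypocotyl. The pifq libraries read 0.309, 0.309 and 0.0276 in cotyledon, 2.75, 3.95 and 2.64 in hook, and 2.81, 3.43 and 1.93 in hypocotyl. The genotypes did not overlap in any organ, with pifq below WT in cotyledon and hook and above it in hypocotyl. The change was -0.70 ± 0.19 in cotyledon (adjusted p = 0.00536), -0.68 ± 0.19 in hook (adjusted p = 0.00649; -0.82 without pifq hook replicate 2) and 0.56 ± 0.19 in hypocotyl (adjusted p = 0.0235). The cotyledon fall was -2.37 on the recovered reads, of which the pifq cotyledon libraries held 11, 11 and 1. The hook call was lost with 0.1 in place of 1 as the added value (adjusted p = 0.0924). The hypocotyl rise was lost in 7 of 14 alternatives, with adjusted p up to 0.149, among them leaving out WT hypocotyl replicate 3 or pifq hypocotyl replicate 1 or 2. The effect in hypocotyl nevertheless differed from that in cotyledon by 1.25 ± 0.27 and from that in hook by 1.23 ± 0.27 (adjusted p = 0.00159 and 0.0033). The second was 1.37 without pifq hook replicate 2 and was lost with 0.1 as the added value (adjusted p = 0.0509). YUC3 was thus the one tested YUC gene called lower in cotyledon and higher in hypocotyl, the reverse of YUC2, YUC5 and YUC9.

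YUC4 (AT5G11320, chr5:3611247-3613640, minus strand, 3 exons) and YUC1 (AT4G32540, chr4:15700829-15703000, 4 exons), known from the shoot apex and young organs, were the pair with 70.4% coding identity. YUC4 gave 1.03, 1.202 and 1.32 FPKM in WT cotyledon, 1.43, 1.38 and 1.23 in WT hook, and 0.282, 0.367 and 0.214 in WT hypocotyl. The pifq libraries of YUC4 gave 0.530, 0.437 and 0.226 in cotyledon, 1.87, 2.70 and 2.42 in hook, and 0.343, 0.355 and 0.201 in hypocotyl. It was therefore lower than WT in every cotyledon library, higher in every hook library and overlapping in hypocotyl. The change was -0.65 ± 0.12 in cotyledon (adjusted p = 0.000277; -1.49 on the recovered reads), 0.50 ± 0.12 in hook (adjusted p = 0.00247; 0.42 without pifq hook replicate 2) and 0.01 ± 0.12 in hypocotyl (adjusted p = 0.938). The effect in hook differed from that in cotyledon by 1.15 ± 0.18 (adjusted p = 0.00011; 1.07 without pifq hook replicate 2).

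YUC1 was at the edge of detection, with 0 to 26 recovered reads per library. It gave 0.106, 0.555 and 0.393 FPKM in WT cotyledon, 0.501, 0.228 and 0.486 in WT hook, and 0.0381, 0 and 0.0794 in WT hypocotyl. In the mutant YUC1 read 0.445, 0.0684 and 0.0671 in cotyledon, 0.858, 0.702 and 0.984 in hook, and 0.0727, 0.0754 and 0.166 in hypocotyl. Only in the hook did the genotypes not overlap, with pifq above WT. Without a filter on low values that hook difference was 0.40 (adjusted p = 0.0197), while those in cotyledon and hypocotyl were -0.18 and 0.09 (adjusted p = 0.301 and 0.651). The meristem gene STM and the boundary gene CUC2 were, like YUC4, called lower in pifq cotyledon (-1.67 and -0.88). The other 3 of the 5 tested meristem and boundary markers were not called there. The boundary genes CUC1, CUC2 and CUC3 were called higher in pifq hook (0.82, 0.77 and 1.65). Without pifq hook replicate 2 these changes were 0.64, 0.71 and 1.52, all called. In hypocotyl, where YUC4 was not called, 2 of the 5 tested markers were called higher and 1 lower. The summed meristem and boundary markers read 5.39 to 9.40 FPKM in WT cotyledon and 1.12 to 2.30 in pifq cotyledon; WUS was at 0 in both. The part of such apex tissue in the YUC1 and YUC4 values was not tested.

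YUC6 (AT5G25620, chr5:8934941-8938768, minus strand, 4 exons) was the member that differed least between genotypes. It gave 0.942, 1.17 and 1.30 FPKM in WT cotyledon, 3.12, 2.52 and 3.42 in WT hook, and 4.32, 3.52 and 4.67 in WT hypocotyl. In pifq YUC6 gave 2.08, 1.49 and 1.62 in cotyledon, 2.60, 3.54 and 2.18 in hook, and 4.03, 3.12 and 3.41 in hypocotyl. The genotypes overlapped in hook and hypocotyl, and pifq lay above WT in cotyledon. No difference was called: 0.35 ± 0.15 in cotyledon (adjusted p = 0.0512; 95% interval 0.04 to 0.67), -0.10 ± 0.15 in hook (-0.41 to 0.21) and -0.19 ± 0.15 in hypocotyl (-0.51 to 0.12). The median-ratio scaling called it higher in cotyledon (0.49, adjusted p = 0.00657) and lower in hypocotyl (-0.38, adjusted p = 0.0334), and so did the recovered reads (0.73 and -0.48). YUC6 kept the WT order of its mean FPKM, cotyledon below hook below hypocotyl, in pifq. There hook and hypocotyl did not differ beyond their spread (0.27 ± 0.15, adjusted p = 0.119). That difference was called under the median-ratio scaling (adjusted p = 0.0296), on the recovered reads (0.029) and with organelle genes removed (0.0487). The pifq hook was called above the pifq cotyledon (0.46 ± 0.15, adjusted p = 0.013). This call was lost under the median-ratio scaling (0.10, adjusted p = 0.593) and on the recovered reads (0.24, adjusted p = 0.354).

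Counted over the members, pifq cotyledon had 3 called higher and 3 lower of 9 tested, against 59.8% of all tested genes called in either direction (24.4% higher, 35.4% lower). Hook had 5 higher and 3 lower (all genes 60.7%; 36.6% higher, 24% lower), and hypocotyl 1 higher and 5 lower (52.4%; 35.9% higher, 16.5% lower). Most of all tested genes were called in each organ, so being called sets no member apart. The median change of the 9 tested was 0.27 in cotyledon, 0.50 in hook and -0.84 in hypocotyl, beside -0.10, 0.12 and 0.17 over all tested genes. Of all 10 genes, 7 in cotyledon, 8 in hook and 6 in hypocotyl had genotypes that did not overlap, against 67.6%, 66.3% and 56% of tested genes.

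Scaling libraries by median ratios moved the median of all genes to 0.04 in cotyledon, -0.02 in hook and -0.02 in hypocotyl. With it the calls over all genes went from 4718 higher and 6847 lower to 6334 and 5260 in cotyledon, from 7090 and 4648 to 5652 and 5922 in hook, and from 6939 and 3198 to 4547 and 5194 in hypocotyl. The members' calls then read 5 higher and 2 lower in cotyledon, 3 and 3 in hook, and 0 and 6 in hypocotyl. No called change of a member reversed its sign.

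**Figure D3:**
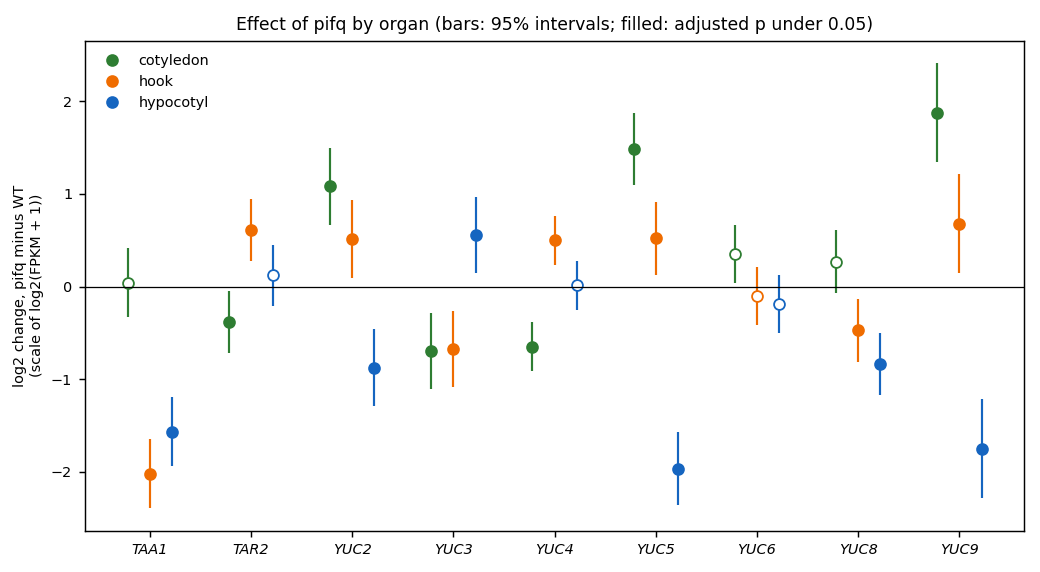
Log2 change of pifq against WT (y axis, log2(FPKM + 1) scale) for the 9 tested genes in cotyledon (green), hook (orange) and hypocotyl (blue); bars are 95% intervals and filled points have an adjusted p under 0.05. YUC2, YUC5 and YUC9 run from 1.08 to 1.88 in cotyledon and from -0.87 to -1.96 in hypocotyl.

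The effect of pifq differed between organs for most members. Between hook and cotyledon 6 of 9 interactions were called (all genes 41.4%), between hypocotyl and cotyledon 8 of 9 (45.7%; TAR2 was the exception), and between hypocotyl and hook 5 of 9 (29.1%). Without pifq hook replicate 2 the counts that use the hook were 7 and 5: YUC6 was then called between hook and cotyledon (-0.59; adjusted p = 0.0282), and between hypocotyl and hook TAR2 was called (-0.65; adjusted p = 0.0288) and YUC4 was not (-0.41; adjusted p = 0.102). Between organs of one genotype, 5 members were called for WT hook against cotyledon (all genes 57.8%), 6 for WT hypocotyl against cotyledon (74%) and 9 for WT hypocotyl against hook (64.8%). In pifq these counts were 7 (64.7%), 8 (71.9%) and 4 (64.6%), and without pifq hook replicate 2 those that use the hook were 5 and 5, with TAA1 (adjusted p = 0.0565) and YUC6 (adjusted p = 0.0838) no longer called for hook against cotyledon.

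Summed over the 8 YUC genes, transcripts were 7.53 ± 1.33 FPKM in WT cotyledon, 18.7 ± 1.41 in WT hook and 20.7 ± 2.34 in WT hypocotyl (SD, n = 3). In pifq the sums were 13.8 ± 1.06, 16.7 ± 1.51 and 10.1 ± 1.92. The mutant libraries lay above WT in cotyledon (12.7 to 14.8 against 6.61 to 9.05) and below in hypocotyl (7.84 to 11.3 against 18.03 to 22.5). In the hook the genotypes overlapped. With 3 libraries against 3 an exact permutation test cannot go below p = 0.1, and none is given for these sums.

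The genes behind the sums differed. Because YUC2, YUC5 and YUC9 were grouped after their values were seen, their shares describe that pattern again and do not test it. YUC2, YUC5 and YUC9 together made up 6.79 ± 1.97% of YUC FPKM in WT cotyledon and 51.2 ± 4.84% in pifq cotyledon. They made up 52.0 ± 5.19% in WT hypocotyl and 16.1 ± 4.41% in pifq hypocotyl, and 2.40 ± 0.47% and 13.5 ± 5.75% in the hook. The shares in the pifq cotyledon libraries (45.8% to 55.2%) and in the WT hypocotyl libraries (46.3% to 56.5%) overlapped. Within the pifq hook, replicate 2 had the lowest share, 6.85%, and the other 2 had 16.8% each. In the WT hook the sum was carried by YUC8, YUC3 and YUC6, at 42.5%, 29.7% and 16.1%.

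**Figure D4:**
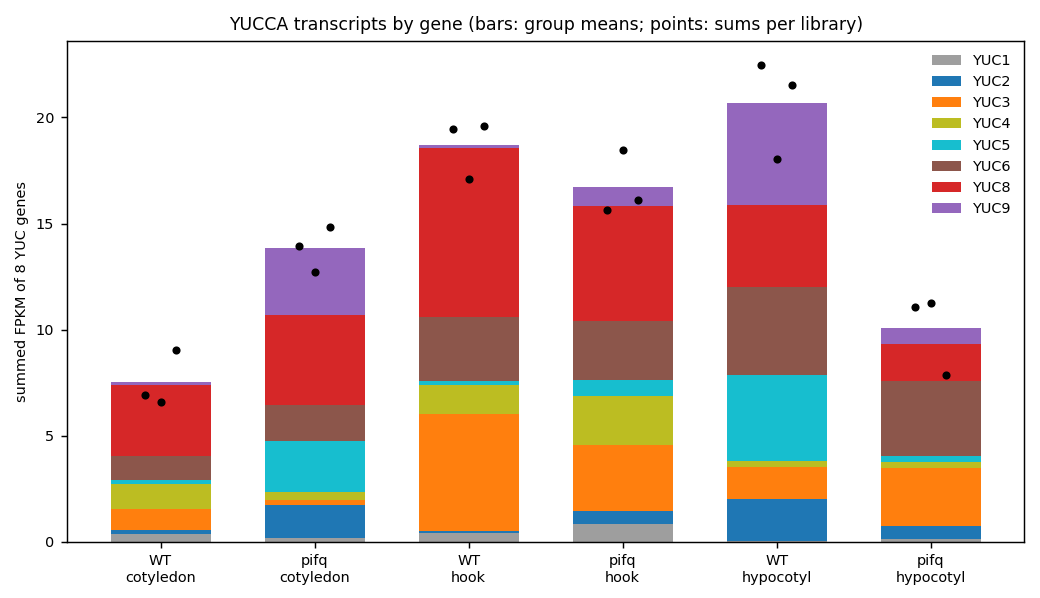
Summed FPKM of the 8 YUC genes (y axis) in the 6 groups, with bars stacked by gene mean and points for the sum in each library. The pifq sum is higher than WT in cotyledon (13.8 and 7.53) and lower in hypocotyl (10.1 and 20.7). YUC2, YUC5 and YUC9, grouped after their values were seen, make up most of both differences.

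For each tested member the 3 genes with the most similar log2(FPKM + 1) profile over the 18 libraries were listed from 19348 others. Those of YUC9 were YUC5, YUC2 and AT5G40690 (r = 0.90 for the last), and those of YUC5 were YUC9, GH9B18 (0.90) and UMAMIT41 (0.88). Those of YUC2 were NAC041 (0.91), AT5G40690 (0.90) and YUC9. For TAA1 they were AT1G21830 (0.96), ESE3 (0.93) and RR12 (0.92), and for TAR2 PDE327, TIC40 and AT5G04710, all at 0.99. For YUC3 they were AT1G64650, AT4G19900 and RGP1 (0.97, 0.96 and 0.96), for YUC4 AT5G04885, AN3 and NTT (0.95, 0.95 and 0.95), for YUC6 FLA7, AT1G62790 and AT2G30930 (0.96, 0.96 and 0.96), and for YUC8 RCAR1, AT5G03545 and RAT5 (0.90, 0.90 and 0.90). YUC9 and YUC5 were in each other's lists, and so were YUC9 and YUC2, but YUC2 and YUC5 were not. No other member appeared in the list of another. These are descriptions over libraries that share groups and depth, and carry no test.

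Among the other copies of these families, 5 of 6 were listed and 3 were tested. YUC7, a close relative of YUC3, was called higher in all 3 organs of pifq (0.59, 0.96 and 0.37 in cotyledon, hook and hypocotyl), with mean FPKM of 0.438, 0.500 and 0.193 in WT and 1.18, 1.93 and 0.557 in pifq. TAR3, a relative of TAA1 with no established part in auxin synthesis, was at 14.2, 9.70 and 16.3 FPKM in WT hypocotyl and at 4.15, 6.02 and 4.00 in pifq hypocotyl (-1.32 ± 0.19; adjusted p = 3.69e-05). TAR4 was not called in any organ. The median change of the 3 was -0.02, 0.32 and 0.21. YUC10 and YUC11, known from seeds, failed the filter.

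The counts of the lists that follow are to be read against all tested genes, of which 24.4%, 36.6% and 35.9% were called higher in cotyledon, hook and hypocotyl and 59.8%, 60.7% and 52.4% in either direction, with a median change of -0.10, 0.12 and 0.17. Upstream of TAA1, among genes that make tryptophan, of 10 tested, 6 were called higher and 1 lower in cotyledon, 8 and 0 in hook (7 and 0 without pifq hook replicate 2), and 7 and 0 in hypocotyl. These shares called higher were above those of all tested genes, with no test of that difference. Their median change was 0.57, 0.57 and 0.75. ASA1, the feedback-regulated anthranilate synthase subunit, rose from 3.62 to 11.5 FPKM in hook (1.43 ± 0.13; adjusted p = 1.71e-07) and from 6.77 to 24.5 in hypocotyl (1.72 ± 0.13; adjusted p = 4.65e-08). TSA1, the tryptophan synthase alpha subunit, led in cotyledon (1.21) and hook (1.45; 1.37 without pifq hook replicate 2, and 1.32 for ASA1), and TRP1, the phosphoribosyltransferase of the pathway, was higher in cotyledon at 0.85. PAI2 was called higher in hypocotyl (1.15), and PAI1 lower in cotyledon (-1.10). The pifq libraries of TRP1 also lay above WT in hook (mean FPKM 11.3 in WT and 27.7 in pifq) and hypocotyl (12.4 and 28.0). Those of PAI2 did so in cotyledon (2.35 and 4.17) and hook (2.79 and 5.55), those of ASA1 in cotyledon (4.39 and 7.92) and those of TSA1 in hypocotyl (26.0 and 45.9). PAI1 overlapped with WT in hook and hypocotyl. PAI1 and PAI2 are closely similar copies between which the authors' counting could have split reads, so their separate values are uncertain.

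Other routes to auxin start with the same tryptophan. CYP79B2 and CYP79B3 make indole-3-acetaldoxime, which also feeds indole glucosinolates. CYP79B3 gave 79.8, 53.3 and 94.6 FPKM in WT hypocotyl and 312.8, 338.2 and 357.8 in pifq hypocotyl (2.17 ± 0.22; adjusted p = 7.33e-07), and CYP79B2 rose there from a mean of 41.1 to 166.0 (2.01 ± 0.14; adjusted p = 1.4e-08). Both were higher in the hook too (1.53 for CYP79B3 and 1.30 for CYP79B2; 1.23 and 1.16 without pifq hook replicate 2), and in cotyledon CYP79B2 was called (0.47) and CYP79B3 was not (0.23; adjusted p = 0.391). NIT4, a nitrilase that acts on beta-cyanoalanine, was lower in all 3 organs (-1.62, -0.59 and -0.53), and AMI1, an indole-3-acetamide hydrolase, was lower in cotyledon (-0.92). NIT1 was lower in hypocotyl (-0.49) and NIT1 and NIT3 were higher in cotyledon (0.60 and 0.70); NIT1 to NIT3 are neighbouring, similar copies, and reads could have been split between them. Over the 7 genes the counts were 3 higher and 2 lower in cotyledon, 4 and 1 in hook, and 2 and 2 in hypocotyl, with a median change of 0.23, 0.35 and 0.24; the shares called, 5, 5 and 4 of 7, lie near those of all tested genes.

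Genes that remove auxin or IPyA were 2 higher of 4 tested in cotyledon, 3 in hook (2 without pifq hook replicate 2) and 2 in hypocotyl, with 2 lower in the last, and their median change was 0.50, 0.56 and 0.45. DAO1 and DAO2, auxin oxidases that lie next to each other, were both higher in pifq hypocotyl: DAO2 rose from 21.1, 11.995 and 23.6 FPKM to 92.0, 93.1 and 112.6 (2.38 ± 0.24; adjusted p = 6.84e-07) and DAO1 from a mean of 6.26 to 16.99 (1.34). The pifq libraries of DAO2 also lay above WT in cotyledon (mean FPKM 4.47 in WT and 8.70 in pifq) and hook (14.5 and 27.9). Those of DAO1 did so in hook (4.75 and 7.44) and overlapped with WT in cotyledon. Without pifq hook replicate 2 the hook change was 0.56 for DAO2, called, and 0.40 for DAO1, not called. VAS1, which returns IPyA to tryptophan, was higher in cotyledon and hook (0.77 and 0.59) and lower in hypocotyl (-0.43). IAMT1, an auxin methyltransferase, was lower in hypocotyl (-1.10). Among 5 tested genes that release auxin from conjugates, MES17, an esterase of methyl auxin, was higher in all 3 organs (1.07, 2.24 and 1.61), the amidohydrolase ILR1 was lower in cotyledon and hook (-1.05 and -0.52), ILL6 was lower in hook (-0.88), IAR3 was higher in hypocotyl (0.72) and ILL2 was lower there (-0.36). The 5 had 1 higher and 1 lower in cotyledon, 1 and 2 in hook, and 2 and 1 in hypocotyl, with a median of -0.20, 0.16 and 0.43; the hook median was -0.12 without pifq hook replicate 2, with the same counts.

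Of 7 tested transcription factor genes known to act on TAA1 or YUC genes, 4 were higher and 1 lower in cotyledon, 5 and 0 in hook (4 and 0 without pifq hook replicate 2), and 5 and 0 in hypocotyl, with a median change of 0.34, 0.58 and 0.56. RVE1, a MYB-like factor known to raise YUC8, rose in each organ: its libraries gave 11.8 to 15.5 FPKM in WT cotyledon and 39.8 to 48.9 in pifq cotyledon (1.70 ± 0.15; adjusted p = 1.05e-07), with changes of 1.40 in hook and 0.89 in hypocotyl. YUC8 itself was lower in hook and hypocotyl, as given above. STY1, an activator of YUC4 and YUC8, was higher in hook and hypocotyl (1.54 and 1.06; 1.44 in hook without pifq hook replicate 2) and was not called in cotyledon (0.19; adjusted p = 0.357), and STY2 was lower in cotyledon (-0.67). IDD15, whose product is known to raise YUC5 and TAA1, was higher in hypocotyl (0.92), where both of these were lower. IDD14 and IDD16 were higher in cotyledon (0.53 each), and LEC2 and SPL/NZZ failed the filter. The pifq libraries of IDD16 also lay above WT in hook (mean FPKM 0.406 in WT and 1.74 in pifq) and hypocotyl (0.209 and 0.804). Its hook change was 0.99 without pifq hook replicate 2. Those of IDD14 lay above WT in hypocotyl (5.96 and 8.20) and overlapped with WT in hook.

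**Figure D5:**
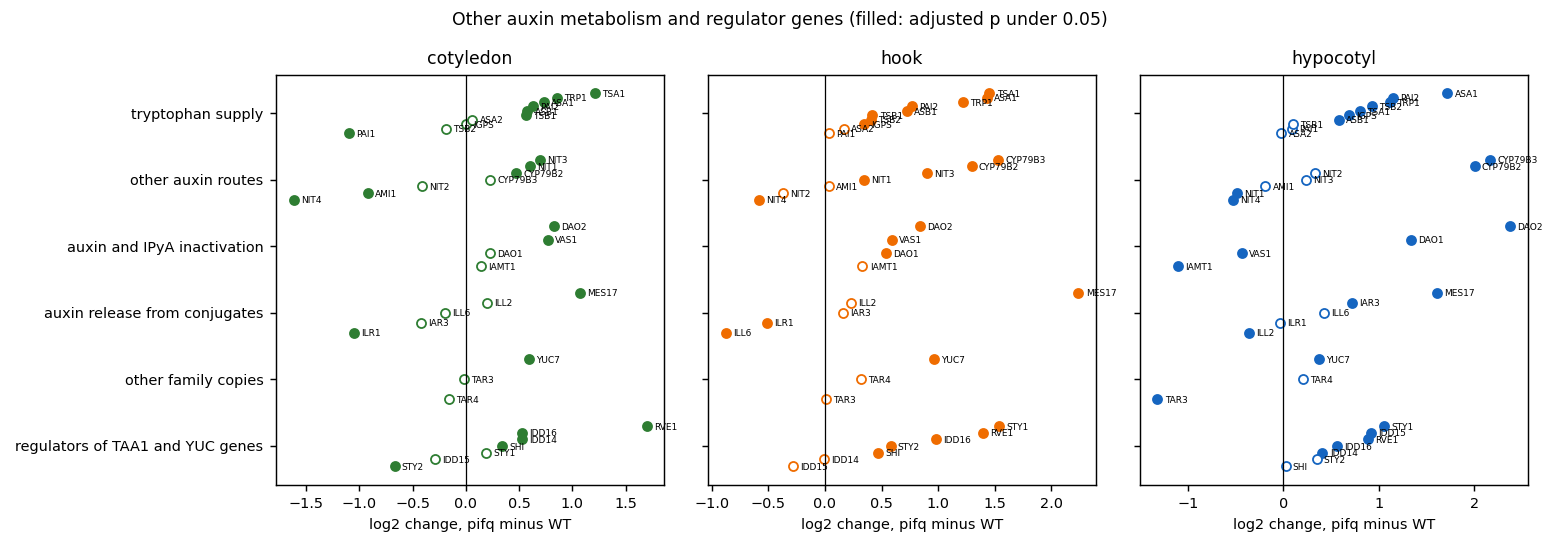
Log2 change of pifq against WT (x axis, log2(FPKM + 1) scale) for genes of 6 lists (y axis) in the 3 organs; each point is a gene, filled where the adjusted p is under 0.05. Tryptophan supply lies mostly to the right of 0 in all organs, and CYP79B2, CYP79B3 and DAO2 reach 2.01 to 2.38 in hypocotyl.

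Organelle transcripts took smaller shares in pifq cotyledon and hook than in WT, and the hypocotyl libraries overlapped. These transcripts made up 1.01% to 4.11% of summed FPKM in WT libraries, 0.10% to 0.227% in pifq cotyledon and hook, and 0.0970% to 1.61% in pifq hypocotyl. With these genes removed and the libraries rescaled, the members' counts were 6, 8 and 6 in cotyledon, hook and hypocotyl, as with them.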

How the data were processed

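Each of the 18 libraries came from total RNA and a NEBNext Ultra RNA library kit, per the labels' protocols. The submitters' processing notes name HISAT2, DESeq2 and the TAIR10 build, without versions or roles. The authors deposited 1 FPKM value per gene and library; how fragments were counted is not given in the sources used here.

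FPKM multiplied by exon length (TAIR10.1 annotation, matched by identifier for 25788 of 26073 genes) fell on whole multiples of a per-library step for 99.4% to 99.5% of values below 100 reads (tolerance 0.05 read). These recovered reads gave the depths and served 1 alternative. The main test was limma 3.58.1 (R 4.3.3), with a mean-variance trend, on log2(FPKM + 1) for the 19349 genes at or above 1 FPKM in 3 or more libraries, with 6 group means over 18 libraries and Benjamini-Hochberg adjustment over all genes; it was tested on simulated data. Alternatives were another pseudocount (0.1), other filters (none; 5 FPKM), median-ratio scaling, removal of organelle genes, limma-voom on recovered reads, the replicate number as a block, each comparison's 6 libraries alone, and each library left out; the lists in the hook without pifq hook replicate 2 were added after seeing the data. The main test did not treat replicate numbers as pairing, and the block alternative used them over all 18 libraries. Same-numbered libraries of pifq hook and pifq hypocotyl deviated together (r of 0.12, 0.20 and 0.12). Over all 45 same-numbered pairs from 2 groups, 15 had r above 0.1 and 19 had a negative r.

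Besides the 10 members, the text names, per list and organ, at most the 2 largest called rises and falls whose libraries did not overlap. The exceptions (not called, named for their role, or a named gene in another organ) are given with values. The members and lists were chosen with earlier results of these data known. Motifs were searched and sequences read with Python 3.11.15.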

Additional observations from a re-analysis of the deposited data

Results flagged for a closer look

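The differences below stand out because the effect of pifq differed between 2 organs by a test of the interaction (limma, adjusted p under 0.05 over all genes); values are the log2 change in the first organ minus that in the second, and no cause was tested.

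For hook minus cotyledon the values were -2.06 for TAA1, 0.99 for TAR2, 1.15 for YUC4, -0.96 for YUC5, -0.74 for YUC8 and -1.20 for YUC9. For hypocotyl minus cotyledon they were -1.61 for TAA1, -1.95 for YUC2, 1.25 for YUC3, 0.66 for YUC4, -3.45 for YUC5, -0.54 for YUC6, -1.10 for YUC8 and -3.63 for YUC9. For hypocotyl minus hook they were -1.39 for YUC2, 1.23 for YUC3, -0.49 for YUC4, -2.48 for YUC5 and -2.42 for YUC9. The values for YUC6 (adjusted p = 0.0442) and for YUC4 in hypocotyl minus hook (adjusted p = 0.0479) were lost on leaving out 8 and 11 of the 12 libraries they use. With 0.1 added in place of 1, YUC9 in hook minus cotyledon (adjusted p = 0.104) and YUC3 in hypocotyl minus hook (0.0509) were no longer called. On the recovered reads YUC9 (0.326) and YUC5 (0.0692) in hook minus cotyledon and YUC4 in hypocotyl minus cotyledon (0.0744) were no longer called.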

How the results depend on the processing

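Of 1533 recalculated single-gene differences, 1423 kept their direction and their side of the threshold or stayed uncalled, 82 lost and 28 gained a call, and 0 reversed while called. Of the 20 calls of pifq against WT, 13 held in every alternative. Requiring 5 FPKM left fewer members to test, and the counts called became 2, 4 and 3 for pifq in cotyledon, hook and hypocotyl, 3, 3 and 1 for the interactions (hook minus cotyledon, hypocotyl minus cotyledon, hypocotyl minus hook), 1 and 4 for WT hypocotyl against cotyledon and against hook, and 2 and 4 for pifq hook and hypocotyl against cotyledon. With 0.1 added in place of 1, the interaction of hypocotyl minus hook gave 3; the cause was not tested. Leaving out 1 library gave 5 to 6 calls in cotyledon, 5 to 8 in hook (5 without WT hook replicate 1 or 3 or pifq hook replicate 1) and 5 to 6 in hypocotyl. It gave 6 to 7, 7 to 9 and 4 to 5 for the interactions, 5 to 5, 6 to 7 and 8 to 9 for the WT organ comparisons, and 5 to 7, 8 to 8 and 4 to 5 for those of pifq. Same-numbered libraries of 2 groups deviated with r from -0.22 to 0.25 over 45 pairs. The replicate block gave 5, 8 and 6 calls in cotyledon, hook and hypocotyl; TAR2 in cotyledon was lost (adjusted p = 0.058), as were YUC6 for WT hypocotyl against hook (0.0518) and for hypocotyl minus cotyledon (0.0561) and YUC4 for hypocotyl minus hook (0.0532). Apart from YUC5 in pifq hypocotyl against hook it changed no other call. Depth limits YUC1, at 0 to 26 reads per library, and YUC2, YUC5 and YUC9 in WT cotyledon and hook, at 0 to 10. Reads were similarly few in other groups, among them YUC3 in pifq cotyledon (1 to 11), YUC5 in pifq hypocotyl (9 to 11) and YUC4 in WT hypocotyl (8 to 11).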
